A study of Mus musculus with 6 samples.

Results

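The enzymes that make, salvage, reduce and break down purine and pyrimidine nucleotides were examined in bone marrow stromal cells (BMSC) recovered from mouse brain after stroke. The set is a fixed list of 43 genes, chosen by the function of the enzyme but with earlier results of these data known. Of these, 42 were measured among the 18193 genes that could be named on the arrays. The set was read in 6 classes: 12 genes of purine synthesis, 5 of pyrimidine synthesis, 8 of salvage, 7 of deoxynucleotide supply, 4 nucleotide kinases and 7 of deamination and breakdown. The 43rd gene, Impdh2, which encodes an IMP dehydrogenase, has no probe set of its own in the annotation used and is not analysed here.

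Cells build purine rings step by step on activated ribose phosphate (PRPP), and build the pyrimidine ring first and join it to PRPP afterwards. Salvage enzymes reuse free bases and nucleosides, ribonucleotide reductase turns ribonucleotides into the deoxynucleotides that DNA synthesis consumes, and thymidylate is made by a separate route that also keeps uracil out of DNA. Dividing cells are known for high activity of ribonucleotide reductase and cytosolic thymidine kinase in S phase, whereas deaminases, phosphorylases and dihydropyrimidine dehydrogenase remove nucleosides and bases.

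RNA was measured on 6 Affymetrix mouse genome arrays, 3 of iLarge T BMSC and 3 of naïve Large T BMSC. The question was which genes differ between cells that had infiltrated the infarct and the line that was injected. Each array held RNA pooled from 3 hemispheres or from 3 sets of naïve cells, so p-values measure the spread between pooled arrays, and the number of arrays limits the precision. Both groups are adherent marrow cells of the H-2Kb-tsA58 Immortomouse, which carries a temperature-sensitive SV40 large T antigen driven by the H-2Kb promoter and is here an immortalised line rather than primary marrow. iLarge T BMSC (replicates 2, 4 and 6) had been given intravenously to male C57BL/6 mice with transient occlusion of the middle cerebral artery, released from the infarcted hemisphere with collagenase and grown again at the permissive temperature of the antigen. Naïve Large T BMSC (replicates 1, 3 and 5) are the parent cells, which were never in a brain and did not pass through collagenase treatment and a second outgrowth. The RNA of both groups came from cultures, and no cells recovered from an uninjured brain were arrayed.

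Of 9 marrow stromal markers measured (Col1a1, Col1a2, Thy1, Eng, Nt5e, Cd44, Pdgfra, Pdgfrb and Vcam1), 0 were near background on any array, but they were not alike in both groups: Pdgfrb (13.3-fold) and Cd44 (4.11-fold) were called higher in iLarge T BMSC and Vcam1 was called lower (7.01-fold). Markers of blood and microglial cells were uneven: their summed signal was 5391, 4055 and 28883 on iLarge T replicates 2, 4 and 6, against 1924, 10449 and 9149 on naïve replicates 1, 3 and 5, and the pan-leukocyte marker Ptprc reached 4440 on iLarge T replicate 6 alone, with 19.2 to 206 on the other 5 arrays. Most of the sum on naïve replicates 3 and 5 was Cd68 (9873 and 8396). So was most of that on iLarge T replicate 6 (16962), and Cd68 was not called. Csf1r was called higher in iLarge T BMSC (3716, 1892 and 5673, against 883, 330 and 339 in naïve BMSC, adjusted p = 0.0151). The summed signal of 4 endothelial markers was also highest on iLarge T replicate 6, at 29824; replicates 2 and 4 had 3402 and 4260, and the naïve arrays 6455 to 9289. These markers moved in opposite directions: Cdh5 was called higher in iLarge T BMSC (2211, 2787 and 23797, against 210, 32 and 27.5 in naïve BMSC, near background), and Tek, most of the naïve sum, was called lower (502, 458 and 1300, against 5703, 8480 and 9080). Of 4 neuronal markers 1, Tubb3, was called higher (4230, 1328 and 5150, against 892, 355 and 90.9), and of 4 astrocyte and 3 oligodendrocyte markers measured limma called 0, with 1 and 0 at an unadjusted p under 0.05. The astrocyte marker Gfap reached 3104 on iLarge T replicate 6, with 23.1 to 446 on the other arrays. The summed astrocyte signal was 5282 on that array, against 7924 and 8023 on naïve replicates 3 and 5. The part of these cell types in the results was not tested. The hybridization controls were brighter on iLarge T replicate 2 and naïve replicate 1 than on the other 4 arrays, for example 5906 and 5129 for bioB, against 2146 to 3298. Values without these arrays are given where a result rests on them.

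A MAS5 signal is a brightness in arbitrary units, scaled by the authors to a common mean on each array; it can be compared between arrays for 1 probe set but not between genes. Where a gene has several probe sets, the one brightest on average over the 6 arrays (in log2) stands for it. A gene was called when the adjusted p of limma, which fits a linear model to each probe set and pools information on their spread, was under 0.05 and its groups differed 2-fold or more. Fold changes are on the log2 scale as iLarge T minus naïve, followed by their standard error (SE). Signals under the 40th percentile of their array (183 to 300) were taken as near background, and the fold against a group with all 3 arrays there is given as a lower bound.

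Of the 42 measured genes, 9 were called lower in iLarge T BMSC (21.4%) and 4 were called higher (9.52%). Over all 18193 genes, 3.26% were called lower and 3.54% higher, and over the 13192 genes that passed the filter on dim probe sets, 4.48% and 4.84%. All 42 measured enzymes passed that filter, Adssl1, Upp1 and Dpyd only through the iLarge T arrays and Tyms only through the naïve arrays. The median log2 fold change was -0.20 for the 42 genes and 0.06 for all genes. In 16 of the 42 genes all iLarge T arrays lay below all naïve arrays, and in 5 all lay above, where 13.1% and 14.5% of all genes did so. The genes called lower were Prps1, Ppat, Paics, Dhodh, Dck, Tk1, Rrm1, Dtymk and Dut, and those called higher were Adssl1, Guk1, Ampd3 and Dpyd. In bulk cultures fewer cells of a type and less RNA per cell cannot be told apart. The calls depend on the model of the spread. With limma fitted without the intensity trend, 0 genes of the set were called lower and 1, Dpyd, higher, although 10 and 5 had an unadjusted p under 0.05. That fit also called few of all 18193 genes, 48 lower and 85 higher, against 593 and 644 with the trend. With the trend, 17 of the 42 genes and 4011 of all genes had an unadjusted p under 0.05 from limma.

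**Figure D1:**
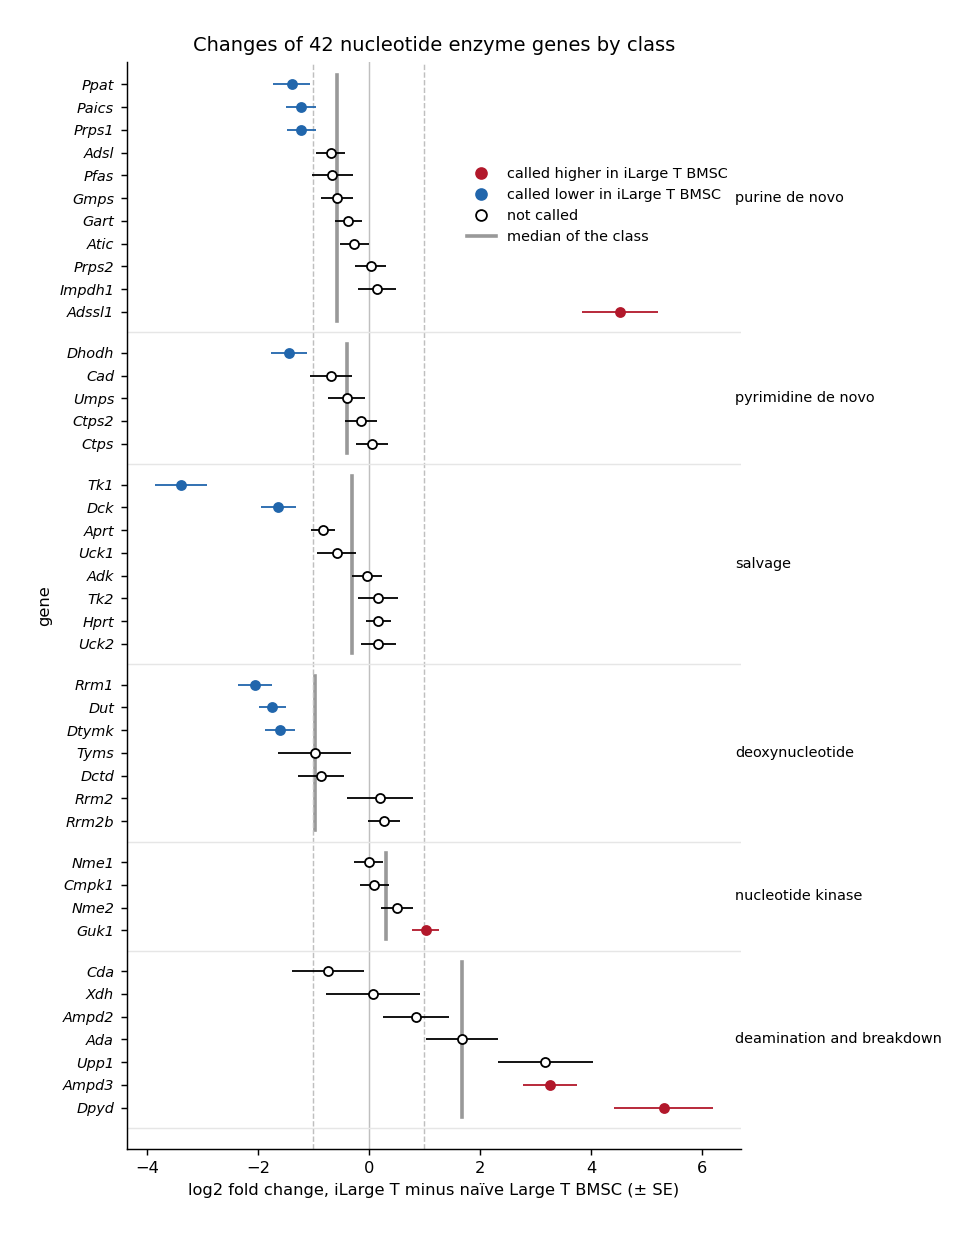
Log2 fold change (horizontal axis, iLarge T minus naïve Large T BMSC, ± SE from limma) of the 42 measured nucleotide enzyme genes, grouped by class, with filled points for called genes, dashed lines at a change of 2-fold and a grey bar at the median of each class. The class median lies at -0.98 for the deoxynucleotide enzymes (the value of Tyms) and at 1.67 for deamination and breakdown (the value of Ada). The values of Adssl1, Upp1, Dpyd and Tyms are fitted against signals near background.

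Promoter windows from RefSeq (mouse genome GRCm38.p6, 250 bases before to 50 after each start) are shown for 5 called genes, as examples of the letters that were searched for in all promoters. Windows of Prps1 and Guk1, also called, hold a CCAAT box each and are not shown. Ppat and Paics encode enzymes of the purine route, of its first committed step and of a later part, and lie head to head on chromosome 5, with Ppat on the minus strand (76913249 to 76951578) and Paics on the plus strand (76951302 to 76967509), so that the 2 genes share 277 bases. Windows are written 5′ to 3′ along the gene. Capitals mark the E2F letters TTTCCCGC (here read on the opposite strand), the E-box, CACGTG, and the box named after its letters CCAAT, which reads ATTGG on the opposite strand. The windows lie at chr5:76951529-76951828 for Ppat (minus strand), chr5:76951052-76951351 for Paics (plus), chr7:102441445-102441744 for Rrm1 (plus), chr1:93801885-93802184 for Dtymk (minus) and chr7:110772354-110772653 for Ampd3 (plus, the only one of its windows with an E-box).
Ppat: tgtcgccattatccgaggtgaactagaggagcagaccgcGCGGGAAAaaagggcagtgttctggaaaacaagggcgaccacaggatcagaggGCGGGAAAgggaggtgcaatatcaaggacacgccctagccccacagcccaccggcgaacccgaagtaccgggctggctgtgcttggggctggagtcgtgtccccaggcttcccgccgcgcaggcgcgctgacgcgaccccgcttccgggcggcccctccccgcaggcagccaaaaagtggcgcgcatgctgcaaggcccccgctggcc
Paics: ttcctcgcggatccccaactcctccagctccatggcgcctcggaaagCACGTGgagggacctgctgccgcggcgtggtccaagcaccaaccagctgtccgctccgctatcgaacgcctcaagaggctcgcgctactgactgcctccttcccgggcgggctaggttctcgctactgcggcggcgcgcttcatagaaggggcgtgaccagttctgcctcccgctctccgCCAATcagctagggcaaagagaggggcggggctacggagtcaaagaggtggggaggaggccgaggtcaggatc
Rrm1: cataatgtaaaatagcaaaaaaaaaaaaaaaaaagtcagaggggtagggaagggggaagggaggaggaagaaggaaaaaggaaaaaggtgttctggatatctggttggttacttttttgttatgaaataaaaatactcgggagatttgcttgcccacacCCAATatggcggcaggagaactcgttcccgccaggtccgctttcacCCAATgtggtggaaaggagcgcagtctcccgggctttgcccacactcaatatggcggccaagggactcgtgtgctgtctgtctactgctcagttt
Dtymk: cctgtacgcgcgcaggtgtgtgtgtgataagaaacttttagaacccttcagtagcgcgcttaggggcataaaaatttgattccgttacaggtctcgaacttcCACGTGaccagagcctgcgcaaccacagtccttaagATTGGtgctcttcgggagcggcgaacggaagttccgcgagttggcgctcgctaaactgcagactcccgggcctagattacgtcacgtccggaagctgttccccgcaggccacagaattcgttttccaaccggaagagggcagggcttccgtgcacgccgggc
Ampd3: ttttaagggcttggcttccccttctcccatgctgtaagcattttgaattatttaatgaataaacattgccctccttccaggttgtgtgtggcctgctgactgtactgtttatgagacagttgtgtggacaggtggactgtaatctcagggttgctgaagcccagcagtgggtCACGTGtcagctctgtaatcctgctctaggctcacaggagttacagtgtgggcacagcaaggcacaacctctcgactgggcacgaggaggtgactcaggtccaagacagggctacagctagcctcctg

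The Ppat window holds the E2F letters at 2 places, and the windows of Paics, Dtymk and Ampd3 hold an E-box each. The Rrm1 window, of the large reductase subunit, holds 2 CCAAT boxes and neither of the other motifs. Windows were found for 39 of the 43 genes, 55 in all (none were listed for Pfas, Dhodh, Rrm2b and Xdh). With TTTCCCGC, TTTGGCGC, TTTCGCGC and TTTGCCGC searched on both strands, E2F letters stood in 3.64% of the windows of the enzymes, against 2.26% of 32851 windows of all genes. The share with an E-box was 14.5% for the enzymes and 7.15% for all genes, and that with a CCAAT box was 32.7% and 37.4%. Of the 8 windows of genes called lower, 1 held E2F letters, 2 an E-box and 4 a CCAAT box. These counts describe the letters of short windows.

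**Figure D2:**
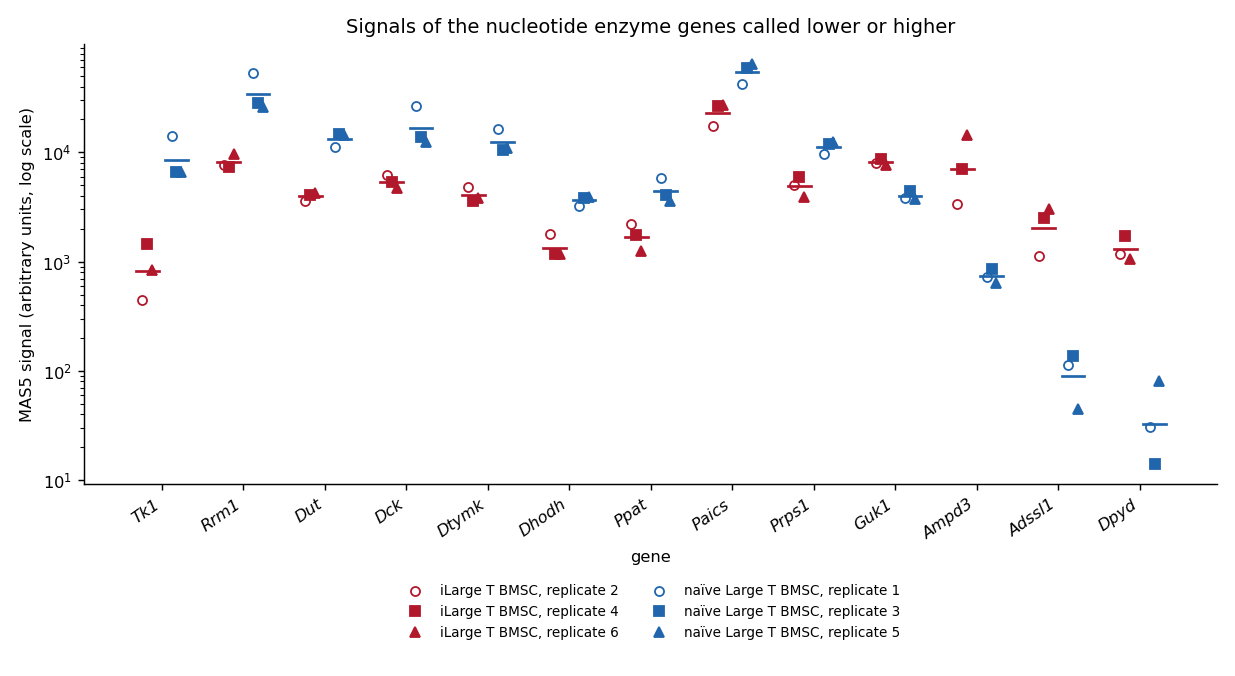
MAS5 signals (vertical axis, arbitrary units, log scale) of the 13 called genes on each array, iLarge T BMSC in red and naïve Large T BMSC in blue, with 1 symbol per replicate and a bar at the geometric mean. The groups do not overlap in any of these genes, and open circles (iLarge T replicate 2 and naïve replicate 1) show that naïve replicate 1 was the brightest naïve array for Tk1, Rrm1, Dck and Dtymk.

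Purine synthesis showed 3 genes lower and 1 higher among 11 measured, with a median log2 fold change of -0.57, and the genes called lower stand at the start and in the middle of the route. Ppat, the amidotransferase of the first committed step, had signals of 2190, 1734 and 1238 in iLarge T BMSC, against 5780, 4079 and 3582 in naïve BMSC. Its log2 fold change was -1.39 (SE 0.33, adjusted p = 0.0456), which is 2.62-fold lower. All iLarge T arrays were below all naïve arrays, and naïve replicate 1 was the brightest. Prps1, a PRPP synthetase that supplies the activated ribose, had 4985, 5953 and 3890 in iLarge T and 9706, 11931 and 12470 in naïve BMSC, a log2 fold change of -1.22 (SE 0.26, adjusted p = 0.0278). Paics, a bifunctional enzyme further along, had 17289, 26302 and 27120 in iLarge T and 42023, 58539 and 64327 in naïve BMSC, with a log2 fold change of -1.23 (SE 0.27, adjusted p = 0.0335). In both genes the groups were clearly apart, and replicate 2 of iLarge T and replicate 1 of naïve BMSC were each the dimmest of their group for Paics.

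These calls were close to the threshold. Without iLarge T replicate 2, 4 or 6 the adjusted p was 0.0629, 0.14 and 0.138 for Ppat, 0.0754, 0.0623 and 0.0996 for Prps1, and 0.102, 0.0992 and 0.0779 for Paics. Without naïve replicate 3 or 5 it was 0.15 and 0.0955 for Ppat, 0.135 and 0.13 for Prps1, and 0.152 for Paics in both cases, and the 3 calls were kept without naïve replicate 1. Ppat also lost its call after quantile normalization (-1.28, adjusted p = 0.0899) and with its probe sets averaged (-0.92, 0.343), and Paics after median centring (-1.42, adjusted p = 0.0772). A second probe set of Ppat was also called (log2 fold change -1.69, adjusted p = 0.0277), and another was near background in both groups (0.31). Of 3 Paics probe sets 2 were called, and the other had -0.91 (adjusted p = 0.0673).

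The steps between and after these were not called. Adsl, adenylosuccinate lyase, had 3119, 4504 and 3782 in iLarge T and 5439, 6416 and 6445 in naïve BMSC, without overlap (log2 fold change -0.69, SE 0.26, adjusted p = 0.193). Pfas, which adds a nitrogen in the middle of the route, had 2952, 2768 and 1305 in iLarge T and 3886, 3622 and 2968 in naïve BMSC (-0.66, SE 0.37, adjusted p = 0.408). The groups nearly touched in Pfas, at 2952 in iLarge T and 2968 in naïve BMSC. Gart, Atic, Impdh1 and Gmps, of further steps of purine synthesis, had log2 fold changes of -0.57 to 0.14 with adjusted p of 0.352 or more. Other Gart probe sets gave -0.96 (adjusted p = 0.12), -0.59 and 0.10 and were not called. Prps2, the sister enzyme of Prps1, had 8350, 13092 and 12716 in iLarge T and 8459, 12425 and 12396 in naïve BMSC, values that overlapped almost completely (0.03, SE 0.28, adjusted p = 0.975).

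Adssl1, the muscle form of adenylosuccinate synthetase, which commits IMP to AMP, went the other way. It had signals of 1127, 2493 and 3008 in iLarge T BMSC, against 113, 138 and 45 in naïve BMSC, all 3 near background. The gene was at least 9.32-fold higher (log2 fold change 4.52, SE 0.69, adjusted p = 0.00618), and the call was kept without any 1 of the arrays, with adjusted p up to 0.0493. Its signal was highest on iLarge T replicate 6, the array with the most signal of blood and endothelial markers, whose part in the result was not tested; without that array the bound was 7.67-fold. Adss, which encodes the ubiquitous form of the same enzyme, had 25369, 23240 and 20115 in iLarge T and 21221, 29296 and 30398 in naïve BMSC and was not called (-0.22, SE 0.24, adjusted p = 0.715).

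Among the 5 genes of pyrimidine synthesis 1 was lower, and the class median was -0.40. Dhodh, the mitochondrial enzyme that oxidises dihydroorotate, had 1778, 1167 and 1165 in iLarge T and 3212, 3842 and 3921 in naïve BMSC. It was 2.72-fold lower without overlap (log2 fold change -1.44, SE 0.32, adjusted p = 0.0307), and a second probe set gave -1.93 (adjusted p = 0.0217). The probe set shown ends in _s_at, a design that can read related transcripts. The call was lost without iLarge T replicate 4 (adjusted p = 0.124) or 6 (0.0974) and without naïve replicate 3 (0.15) or 5 (0.139). Cad, the large enzyme that opens the route and is its main point of control, had 1534, 3216 and 3080 in iLarge T and 2816, 4221 and 5204 in naïve BMSC, and the groups overlapped (-0.68, SE 0.38, adjusted p = 0.41). Umps, which completes UMP, had 3096, 2701 and 1875 in iLarge T and 4603, 2670 and 2945 in naïve BMSC, also with overlap (-0.40, SE 0.33, adjusted p = 0.618). The CTP synthetases Ctps and Ctps2 had log2 fold changes of 0.06 and -0.14.

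The salvage class held 2 genes called lower of 8, both deoxynucleoside kinases. Tk1, the cytosolic thymidine kinase that is made in S phase, had the largest decrease of the 42 genes, with signals of 448, 1452 and 835 in iLarge T and 13986, 6662 and 6650 in naïve BMSC. It was 10.5-fold lower (log2 fold change -3.39, SE 0.47, adjusted p = 0.0041). The brightest iLarge T array, replicate 4, was still well below the dimmest naïve array. Dck, deoxycytidine kinase, had 6189, 5301 and 4720 in iLarge T and 26458, 13905 and 12536 in naïve BMSC (-1.63, SE 0.31, adjusted p = 0.0174), and all 3 of its probe sets were called, with log2 fold changes of -1.63 to -1.92. The call of Tk1 was kept without any 1 array (adjusted p up to 0.0234), whereas that of Dck was lost without iLarge T replicate 2 (0.0509), 4 (0.0799) or 6 (0.0782) or naïve replicate 3 (0.0501).

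Salvage of bases and ribonucleosides had 0 calls by limma among 5 genes, of which 1, Aprt, had an unadjusted p under 0.05; the 5 had a median log2 fold change of -0.04. Aprt, which salvages adenine, had 19484, 20100 and 21182 in iLarge T and 33942, 39106 and 35143 in naïve BMSC. These groups were far apart for their spread, but the difference was under 2-fold and missed the threshold (-0.83, SE 0.21, adjusted p = 0.0573). Uck1, a uridine-cytidine kinase, had 2258, 4034 and 4760 in iLarge T and 4225, 6994 and 4891 in naïve BMSC, with overlap (-0.58, SE 0.35, adjusted p = 0.45). Hprt, which salvages hypoxanthine and guanine, the adenosine kinase Adk and Uck2 had log2 fold changes of -0.04 to 0.17. Tk2, the mitochondrial thymidine kinase, had 2502, 3644 and 4122 in iLarge T and 1942, 3244 and 4311 in naïve BMSC, an overlapping range (0.16, SE 0.36, adjusted p = 0.888).

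Deoxynucleotide supply had the lowest class median, -0.98, with 3 of 7 genes called lower and 0 higher. That median is the value of Tyms, which was not called and was near background on all iLarge T arrays. The class median was -0.86 with dim signals raised to the 40th percentile. With the most variable probe set of each gene it was also -0.86, against -0.87 for pyrimidine synthesis. Rrm1, the large subunit of ribonucleotide reductase, had 7696, 7281 and 9747 in iLarge T and 53298, 28083 and 26169 in naïve BMSC. It was 4.15-fold lower (log2 fold change -2.05, SE 0.31, adjusted p = 0.00561), and a second bright probe set gave -1.78 (adjusted p = 0.00972). Its most variable probe set, near background on 5 of the 6 arrays, gave -3.36 without a call (adjusted p = 0.271). Naïve replicate 1 was brighter than the mean of the other naïve arrays by 0.98 on the log2 scale, and without it the log2 fold change was -1.73 (adjusted p = 0.00109). Dut, the dUTPase that keeps uracil out of DNA, had 3619, 4103 and 4250 in iLarge T and 11183, 14702 and 14339 in naïve BMSC, with little spread in either group (-1.74, SE 0.24, adjusted p = 0.00401). Dtymk, thymidylate kinase, had 4814, 3616 and 3801 in iLarge T and 16389, 10557 and 10861 in naïve BMSC (-1.61, SE 0.27, adjusted p = 0.00976). Of the 2 other Dtymk probe sets 1 was called (-1.99, adjusted p = 0.00242) and 1 was not (-0.83, adjusted p = 0.134), and the second, dimmer Dut probe set was not called either (-1.28, adjusted p = 0.228). On the probe sets shown, the groups were apart by over 2-fold in both genes; the calls of Rrm1 and Dut were kept without any 1 array, and that of Dtymk was lost without iLarge T replicate 4 (adjusted p = 0.0554).

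The small subunits of the reductase were not called. Rrm2, singled out after its values were seen, had 22098, 36761 and 13900 in iLarge T and 57341, 11628 and 11096 in naïve BMSC, and the single bright naïve array, replicate 1, lay above all iLarge T arrays while the other naïve arrays lay below them all. Its log2 fold change was 0.20 (SE 0.60, 95% interval -1.13 to 1.54, adjusted p = 0.915). The 2 other Rrm2 probe sets, with the same order of naïve arrays, gave -0.16 and -0.15, and the one shown ends in _x_at, a design that can read related transcripts. With naïve replicate 1 left out it was 0.98 (adjusted p = 0.122). Rrm2b, the p53-inducible small subunit, had 4971, 5122 and 5482 in iLarge T and 3020, 5197 and 5117 in naïve BMSC, alike but for naïve replicate 1 (0.27, SE 0.29, adjusted p = 0.72).

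Tyms, thymidylate synthase, could only be read on dim probe sets, since its brighter ones are listed to a pseudogene as well and were not used. The one shown had 285, 223 and 164 in iLarge T, all near background, and 564, 334 and 424 in naïve BMSC. It was not called (log2 fold change -0.98, SE 0.66, adjusted p = 0.511). The lower bound of the fold was 1.75, but the 95% interval of the log2 fold change, -2.45 to 0.49, includes no change. Other Tyms probe sets gave -2.78, 0.94 and -0.32 and were not called. Dctd, dCMP deaminase, which feeds thymidylate synthesis, had 1392, 1725 and 667 in iLarge T and 2177, 2206 and 1998 in naïve BMSC. The groups did not overlap, but the iLarge T arrays spread widely (-0.86, SE 0.41, adjusted p = 0.319). With Tk1, Tk2 and Dck counted beside these 7 genes, 5 of 10 were called lower and the median was -1.29.

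Most genes of the cell cycle list were lower as well. Of 17 proliferation genes measured 15 were called lower (88.2%, against 3.26% of all genes) and 0 higher, with a median log2 fold change of -2.71. The summed signal of the 17 was 54203, 96484 and 65148 on iLarge T replicates 2, 4 and 6, against 410412, 359302 and 362006 on naïve replicates 1, 3 and 5. The 4 with the smallest adjusted p encode parts of the replicative helicase: Mcm5 (-3.75, adjusted p = 0.000675), Mcm7 (-2.95, 0.00079), Mcm3 (-3.14, 0.000852) and Mcm6 (-2.60, 0.000852). E2f1, a transcription factor of the S phase programme, was not called (-0.66, adjusted p = 0.508). iLarge T replicate 4 was the brightest array of its group for the summed signal of this list, for Tk1 and Prps1, and for the uncalled Rrm2. Of the other enzymes called lower, Ppat, Dhodh, Dck and Dtymk were brightest on iLarge T replicate 2, and Paics, Rrm1 and Dut on replicate 6. The part of cell division in the changes of the nucleotide enzymes was not tested.

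Of the 4 nucleotide kinases, 1 was higher and the median was 0.31. Guk1, guanylate kinase, which turns GMP and dGMP into diphosphates, had 8044, 8743 and 7591 in iLarge T and 3793, 4450 and 3753 in naïve BMSC, with small spread in both groups. It was 2.03-fold higher (log2 fold change 1.02, SE 0.24, adjusted p = 0.0401). This lies just past the 2-fold threshold, and the call was lost without any 1 of the 6 arrays: without iLarge T replicate 2, 4 or 6 the adjusted p was 0.0964, 0.168 and 0.0948, without naïve replicate 3 or 5 it was 0.123 and 0.165, and with naïve replicate 1 left out the change was 0.99 on the log2 scale at an adjusted p of 0.0215. It was also lost after median centring (0.83, adjusted p = 0.207). Nme2, a nucleoside diphosphate kinase, had 182574, 137549 and 108356 in iLarge T and 128130, 89477 and 81401 in naïve BMSC, which overlapped (0.51, SE 0.29, adjusted p = 0.411). Cmpk1, the UMP-CMP kinase, had 40965, 27135 and 26906 in iLarge T and 32438, 31750 and 23587 in naïve BMSC (0.10, SE 0.26, adjusted p = 0.901). Nme1, whose probe set may also read its close relative Nme2, had a log2 fold change of 0.00.

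Deamination and breakdown had the highest class median, 1.67, with 2 of 7 genes called higher and 0 lower. That median is the value of Ada, which was not called. With 1 array left out the class median ranged from 1.14 (without naïve replicate 5) to 2.56 (without naïve replicate 1). Ampd3, an AMP deaminase known from red blood cells, had signals of 3397, 7079 and 14454 in iLarge T BMSC, against 723, 854 and 643 in naïve BMSC. It was 9.57-fold higher (log2 fold change 3.26, SE 0.48, adjusted p = 0.00537). The naïve arrays were close together and the iLarge T arrays spread over 4-fold, with the brightest signal on replicate 6, the array with the most signal of blood and endothelial markers, whose part in the result was not tested. Without that array the log2 fold change was 2.74 (adjusted p = 0.0214), and the call was kept without any 1 of the arrays. Dpyd, dihydropyrimidine dehydrogenase, the first and limiting enzyme of uracil and thymine breakdown, had 1170, 1727 and 1067 in iLarge T and 30.6, 14 and 80.8 in naïve BMSC, all 3 near background. Dpyd was at least 5.91-fold higher (fitted log2 fold change 5.31, SE 0.89, adjusted p = 0.00939). Its called probe set ends in _s_at, a design that can read related transcripts. The fitted value moved to 4.70 without naïve replicate 3 and to 5.96 without naïve replicate 5, and the call was lost without iLarge T replicate 4 (adjusted p = 0.0671). A second Dpyd probe set was 3.65 without a call (adjusted p = 0.239), and another was near background in both groups; with the probe sets averaged the call was lost (3.23, adjusted p = 0.113).

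The other genes of this class were not called. Upp1, uridine phosphorylase, had 1058, 928 and 456 in iLarge T and 167, 116 and 30.8 in naïve BMSC, all 3 near background. It was at least 3.5-fold higher with an adjusted p of 0.0711 from limma. Without naïve replicate 1 the adjusted p was 0.0249, and without any other 1 array it was 0.127 to 0.239. Upp1 was called with all 6 arrays when arrays with alike hybridization controls were paired as a block, a setting added after the data were seen (adjusted p = 0.0418), and when dim signals were raised to the 40th percentile (1.81 on the log2 scale, adjusted p = 0.0322). Ada, adenosine deaminase, had 6181, 3662 and 4573 in iLarge T and 5073, 892 and 715 in naïve BMSC, and naïve replicate 1 lay among the iLarge T arrays (log2 fold change 1.67, SE 0.65, adjusted p = 0.208). Without naïve replicate 1 it was 2.56 (adjusted p = 0.000927), and without both this array and iLarge T replicate 2, a setting added after the data were seen, 2.36 (adjusted p = 0.00243). Without any other 1 array it was 1.14 to 1.85, with adjusted p of 0.325 to 0.503 from limma. Ampd2, the AMP deaminase of most tissues, had 27819, 9826 and 12105 in iLarge T and 23283, 4239 and 5762 in naïve BMSC (0.85, SE 0.60, adjusted p = 0.544). Without naïve replicate 1 its log2 fold change was 1.59 (adjusted p = 0.0314). Without any other 1 array it was 0.36 to 1.15, with adjusted p of 0.529 to 0.878 from limma. The Ampd2 probe set shown ends in _x_at, a design that can read related transcripts. A second Ampd2 probe set had 1865, 2734 and 1977 in iLarge T and 2293, 1799 and 1626 in naïve BMSC (0.20, SE 0.32, adjusted p = 0.831). On the probe set shown, the 2 brightest signals were on iLarge T replicate 2 and naïve replicate 1, the arrays with the brightest hybridization controls. Xdh, xanthine dehydrogenase, which makes urate, had its lowest signals on the same 2 arrays, 1577 on iLarge T replicate 2 and 1702 on naïve replicate 1, whereas replicates 4 and 6 of iLarge T had 12292 and 10506 and replicates 3 and 5 of naïve BMSC 9358 and 11045. Cda, cytidine deaminase, had a log2 fold change of -0.73 (adjusted p = 0.646).

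**Figure D3:**
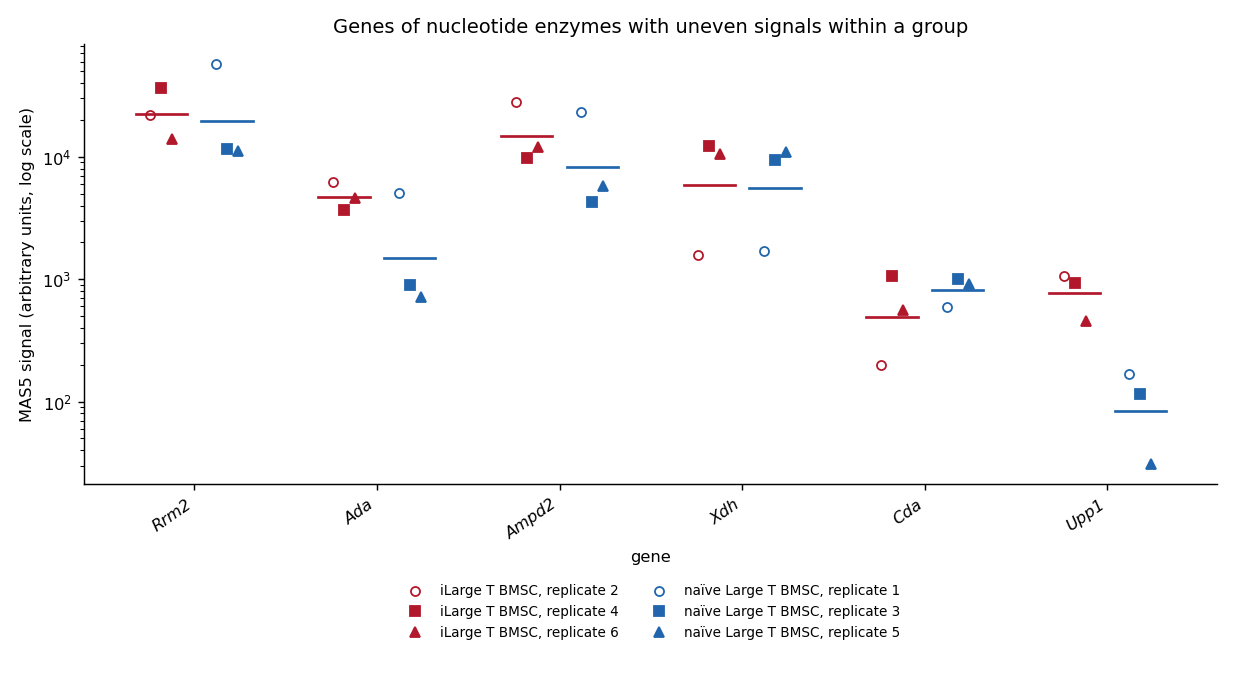
MAS5 signals (vertical axis, arbitrary units, log scale) of 6 uncalled genes whose arrays spread widely within a group, iLarge T BMSC in red and naïve Large T BMSC in blue, with bars at the geometric mean. Naïve replicate 1 (open blue circle) lies far above the other naïve arrays for Rrm2, Ada and Ampd2 and far below them for Xdh.

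Naïve replicate 1 departed from the other naïve arrays in part of the set only. It was at least 2-fold from their mean in 7 of the 42 genes, 6 of them brighter, whereas naïve replicates 3 and 5 were at least 2-fold apart in 3, Adssl1, Upp1 and Dpyd, all near background there. On the log2 scale the departure was 2.67 for Ada, 2.34 for Rrm2, 2.24 for Ampd2, 1.48 for Upp1, 1.07 for Tk1, 1.0 for Dck and -2.58 for Xdh. iLarge T replicate 2 was at least 2-fold from the mean of replicates 4 and 6 in 7 genes. All 9 genes called lower, and 3 of the 4 called higher, were also called without naïve replicate 1, Guk1 being the exception. Over all genes the calls rose as well without that array, from 593 to 1214 lower and from 644 to 1298 higher.

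**Figure D4:**
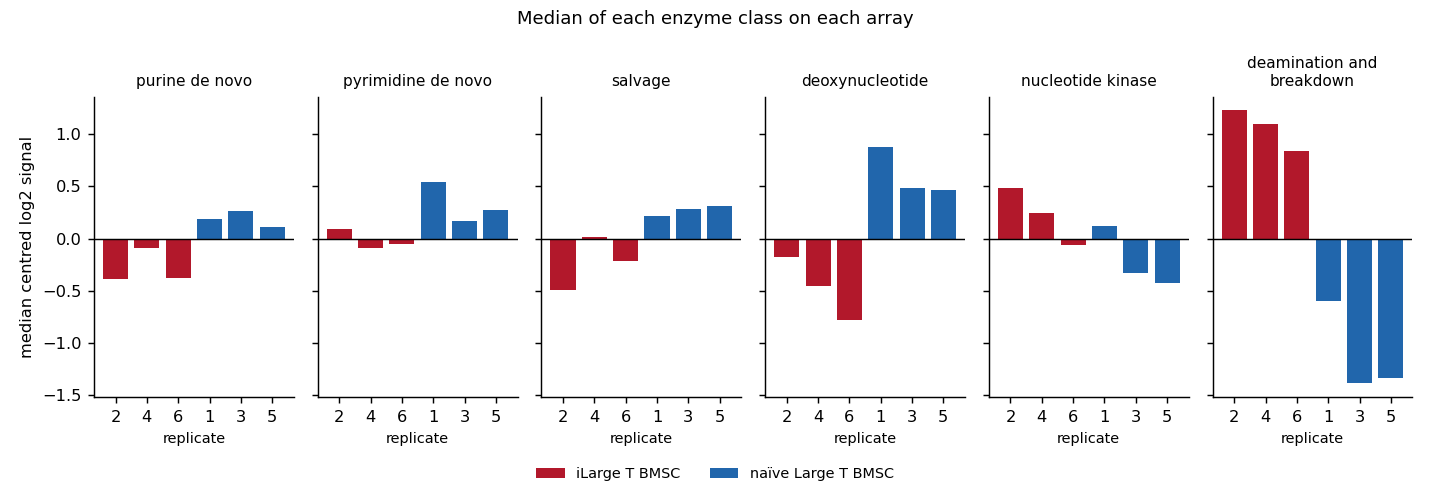
Median over the genes of each class of the log2 signal centred on each gene's mean over the 6 arrays (vertical axis), for iLarge T BMSC replicates 2, 4 and 6 (red) and naïve Large T BMSC replicates 1, 3 and 5 (blue). The deoxynucleotide class lies between -0.78 and -0.18 on the iLarge T arrays and between 0.47 and 0.88 on the naïve arrays, and deamination and breakdown lies between 0.84 and 1.23 and between -1.39 and -0.60.

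Enzymes that catalyse the same step were compared as pairs, by the difference of their log2 changes. With 3 arrays against 3, the exact two-sided permutation test cannot give a p below 0.10, and 7 pairs were compared. The largest difference was that of Tk1 and Tk2: Tk1 minus Tk2 differed by -3.54, iLarge T minus naïve BMSC (exact permutation p = 0.10, adjusted 0.23). Relative to the naïve mean it was -3.99, -2.83 and -3.81 on the iLarge T arrays and 1.34, -0.47 and -0.88 on the naïve arrays, which do not overlap. Prps1 minus Prps2 differed by -1.25 and Uck1 minus Uck2 by -0.75, each also without overlap and at the smallest p that the exact permutation test can give (0.10, adjusted 0.23). For Ampd2 minus Ampd3 the difference was -2.41 and for Nme1 minus Nme2 it was -0.51 (exact permutation p = 0.20, adjusted 0.28 for each). Ctps minus Ctps2 differed by 0.20 (exact permutation p = 0.70, adjusted 0.82) and Rrm2 minus Rrm2b by -0.06 (p = 1.0).

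The supply of building blocks was read from further lists. Folate and one-carbon metabolism gives carbon to the purine ring and to thymidylate. Of 12 genes measured in this list 1 was lower (8.33%, against 3.26% of all genes) and 0 higher, and the median log2 fold change was -0.53. That gene was Shmt1, the cytosolic serine hydroxymethyltransferase, with 876, 469 and 373 in iLarge T and 2317, 5784 and 5808 in naïve BMSC (-3.0, SE 0.48, adjusted p = 0.00811). Its groups were far apart, although naïve replicate 1 was the dimmest naïve array. Of the 6 genes measured that supply ribose phosphate, 2 were higher (33.3%, against 3.54% of all genes) and 0 lower, and the median was 0.52. Taldo1, transaldolase, had 25257, 26538 and 26082 in iLarge T and 14402, 11730 and 10577 in naïve BMSC (1.10, SE 0.23, adjusted p = 0.0234). Pgd, the dehydrogenase that releases ribulose phosphate, had 39386, 39648 and 32545 in iLarge T and 20068, 7602 and 6340 in naïve BMSC (1.91, SE 0.39, adjusted p = 0.0241). Neither gene overlapped between the groups, and Tkt, transketolase, was not called (0.07, adjusted p = 0.925). Rpia, ribose 5-phosphate isomerase, was the 1 gene of the 6 with a negative change and was not called (-1.18, SE 0.50, adjusted p = 0.25). G6pdx, also on the list, was not measured.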

How the data were processed

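RNA of 3 arrays of iLarge T BMSC and 3 of naïve Large T BMSC was compared, grouped by GEO's titles. The values deposited by the authors are MAS5 intensity signals on a linear scale (GeneChip Operating Software, trimmed mean 2488 to 2492 on each array); no detection calls were used. Log2 signals of 45037 probe sets other than 64 controls were tested in R 4.3.3 with limma 3.58.1, using lmFit and then eBayes with its trend option on, Benjamini-Hochberg over all probe sets, after a check on simulated data. Permutation tests used numpy 2.4.6 under Python 3.11.15, with scipy 1.17.1 for their adjusted p and for the 95% intervals. Tables used pandas 2.3.3 and figures matplotlib 3.10.9. Of the probe sets 34945 have 1 gene symbol, 932 several (not used) and 9160 none in the annotation used. The members, classes, lists and tests were chosen with earlier results of these data known. Signals on all arrays are given for called members, for the 2 uncalled ones with the largest change in each class, for Ppat, Cad and Rrm1 and for sister enzymes of called members, and up to 4 called genes are named from each further list. As alternatives, limma was run without the trend, after quantile normalization, after median centring, with dim probe sets (under the 40th percentile) removed or raised to it, with 16 added to signals and without each array; the methods' t-test, other probe set choices and other fold thresholds were tried as well; leaving out 2 arrays together and a block of arrays with alike hybridization controls were added after the data were seen.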

Additional observations from a re-analysis of the deposited data

How the results depend on the processing

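Of the 13 called genes, 12 kept their direction under all 18 alternatives, and Ppat was 0.31 with the most variable probe set, which is near background in both groups. Much of this count was fixed in advance. Limma without the trend, removal of dim probe sets, the block and the t-test on log2 signals leave the fold change as it is. Genes whose groups do not overlap cannot change direction when 1 array is left out. The number called depended most on the estimate of spread. Limma without the intensity trend called 0 lower and 1 higher. The methods' t-test with Benjamini-Hochberg adjustment called 0 lower and 0 higher on log2 and on linear signals. In that t-test 12 lower and 5 higher (log2) and 11 and 4 (linear) had an unadjusted p under 0.05. These settings called few of all 18193 genes. The counts were 48 lower and 85 higher without the trend, 7 and 7 by the t-test on log2 signals, and 36 and 17 on linear signals. The paper reports far more genes from its own adjusted t-test. Leaving out 1 array gave 3 (without iLarge T replicate 4) to 9 (without naïve replicate 1) genes lower and 2 to 6 higher. Over all genes it gave 232 (without naïve replicate 3) to 1214 (without naïve replicate 1) lower. The counts higher over all genes were 250 (without iLarge T replicate 4) to 1298 (without naïve replicate 1). In the set, 5 calls, of Tk1, Rrm1, Dut, Adssl1 and Ampd3, were kept without any 1 array. The other settings, the 2 added ones among them, gave 7 to 9 lower and 3 to 5 higher in the set. Median centring shifted the median of all genes by -0.19 and gave class medians of -0.76 for purine synthesis, -0.60 for pyrimidine synthesis and -0.50 for salvage. Averaging a gene's probe sets gave a pyrimidine median of -0.67, and taking the most variable one gave -0.87, below the -0.86 of the deoxynucleotide enzymes. With Tk1, Tk2 and Dck moved, the medians were -0.04 for salvage and -1.29 for deoxynucleotides. Without 1 array the medians ranged from -0.65 to -0.28 for purine synthesis, -0.56 to -0.24 for pyrimidine synthesis and 1.14 to 2.56 for breakdown, which was 2.36 without iLarge T replicate 2 and naïve replicate 1 together. Uncalled genes near 0 changed sign: Cmpk1 was -0.09 after median centring, -0.02 without both arrays and -0.10 to 0.20 without 1 array; Prps2 was -0.12 (mean of probe sets), -0.16 (median centring), -0.42 (most variable probe set) and -0.15 to 0.24; Tk2 was -0.04 after median centring and -0.16 to 0.42; Rrm2 was -0.04 (mean of probe sets), -0.14 (linear signals) and -0.20 to 0.98. The causes were not tested. The labels give the groups no shared replicate number; with arrays of alike hybridization controls paired as a block, a setting added after the data were seen, 9 genes were called lower and 5 higher, Upp1 in addition. The number of arrays and signals near background limit the precision.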

Other observations

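Nucleotide interconversion outside the 43 enzymes was read from 21 measured genes for further kinases, nucleotidases and purine breakdown. In iLarge T BMSC 1 was higher and 1 lower (4.76% each), near the 3.54% and 3.26% of all genes called higher and lower. Over genes that passed the filter on dim probe sets, as all 21 did, these shares were 4.84% and 4.48%. The median log2 fold change of the 21 was -0.22. Ak1, a cytosolic adenylate kinase known from muscle and brain, had signals of 23928, 32809 and 26326 in iLarge T and 7382, 1216 and 1483 in naïve BMSC (log2 fold change 3.53, SE 0.58, adjusted p = 0.00843 from limma). Dctpp1, a pyrophosphatase that removes surplus dCTP and its modified forms, had 2048, 1828 and 1954 in iLarge T and 6175, 6206 and 5078 in naïve BMSC (-1.58, SE 0.26, adjusted p = 0.00925). The groups were apart in both genes. Gda, guanine deaminase, chosen after its values were seen, had 338, 1890 and 1615 in iLarge T and 685, 36101 and 31813 in naïve BMSC, so that naïve replicate 1 lay among the iLarge T arrays (-3.19, SE 1.33, adjusted p = 0.244).

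Of 5 nucleoside transporters measured, 1 was higher (20%, against 3.54% of all genes) and 0 were lower, with a median log2 fold change of 1.17. Slc29a3, a nucleoside transporter of lysosomes, had 2937, 3967 and 4086 in iLarge T and 1616, 1524 and 1601 in naïve BMSC, with a narrow range in naïve BMSC (1.2, SE 0.29, adjusted p = 0.0481). Slc29a1, the main nucleoside transporter of the plasma membrane, was not called (-0.15, adjusted p = 0.833).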
